A study of Mus musculus with 14 samples.

Results

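The 10 genes described here encode neuronal RNA-binding and splicing regulators: Ptbp1, Ptbp2, Nova1, Nova2, Srrm4, Rbfox1, Rbfox2, Rbfox3, Elavl3 and Elavl4. They were taken by symbol from tables of 56941 gene IDs, and each symbol matched 1 ID. Polyadenylated RNA of mouse embryonic forebrain had been sequenced in 14 libraries. The groups were E18.5 cerebral cortex of double conditional knockouts (dcKO, 4 libraries), E18.5 cerebral cortex with the floxed alleles and no driver named (ff, 4), E12.5 telencephalon of dcKO (3) and E12.5 telencephalon of ff (3). In dcKO, floxed Sbno1 and floxed Trp53 met Emx1-Cre, which recombines in the progenitors of the dorsal telencephalon and in their descendants. Interneurons that migrate in from the ventral telencephalon, vessels and microglia lie outside the Emx1 lineage. No group carried the driver by itself or 1 deletion alone, so the parts played by the driver, by Sbno1 and by Trp53 cannot be told apart.

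Depth, as the sum of expected counts in M, was 48.6 to 82 M in the E18.5 libraries, except dcKO replicate 1 with 5.98 M, and 42 to 67.4 M at E12.5, except ff replicate 1 with 4.92 M. The lowest count of any of the 10 genes in any library was 116. Levels are given as counts per 1000000 scaled by TMM (CPM), which serve to compare 1 gene between libraries, or as the deposited transcripts per 1000000 (TPM), which also allow for length. A gene is called where its p, adjusted over all genes tested, is under 0.05. On the TPM scales an exact permutation p under 0.05, not adjusted, stands in for a call. Every dcKO library came from a male embryo by its chromosome Y and Xist counts, while 2 of 4 E18.5 ff and 1 of 3 E12.5 ff libraries came from females. Among E18.5 libraries, dcKO replicate 3 had little Ttr, a transcript of the choroid plexus (1.82 TPM, against 1401 to 3203 TPM elsewhere). Emx1 was lower in dcKO at both stages in edgeR, by a log2 difference of -0.81 at E18.5 (adjusted p = 8.3e-06) and of -0.96 at E12.5 (adjusted p = 0.0083). Emx1 missed the E12.5 threshold when dcKO replicate 2 (adjusted p = 0.11 in edgeR) or 3 (adjusted p = 0.063 in edgeR) was left out. Sbno1 differed by -0.03 at E18.5 (adjusted p = 0.68 in edgeR) and by -0.59 at E12.5 (adjusted p = 0.051 in edgeR), and Trp53 by -0.20 (adjusted p = 0.032 in edgeR) and -0.23 (adjusted p = 0.22 in edgeR). Trp53 missed the E18.5 threshold when ff replicate 3 or 4, or replicate 1, 3 or 4 labelled dcKO, was left out (adjusted p from 0.054 to 0.090 in edgeR). With no lower Sbno1 count at E18.5, that group is written below as the libraries labelled dcKO. For 11 of 14 samples the description names a library whose column is of another group than the title, and the groups used here follow the column names. No source says that replicates came from separate embryos, so p-values measure the spread between these libraries.

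These proteins set much of the splicing programme that separates neurons from their progenitors. PTBP1 is high in progenitors and skips neural exons, among them an exon of Ptbp2 without which the Ptbp2 transcript is degraded. When PTBP1 falls, helped by the microRNA miR-124, PTBP2 accumulates in young neurons and holds back exons of the mature programme. SRRM4 promotes the inclusion of neural microexons. NOVA1 and NOVA2 bind clusters of a short pyrimidine-CA-pyrimidine motif, and RBFOX proteins bind GCAUG. RBFOX3 is the antigen of the NeuN antibody, which marks neurons. ELAVL3 and ELAVL4 (HuC and HuD) bind U-rich and AU-rich RNA and act on splicing, stability and translation. The deposited values are sums per gene: they measure the transcripts of these regulators, not the splicing of their targets.

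The windows before the starts of 4 genes are shown because these genes moved in opposite directions at E18.5, Nova1 and Nova2 being paralogs. Ptbp1 and Rbfox1 were also the members called in the test of whether the genotype difference changes with stage. For Rbfox1 that call was kept in only 8 of 23 alternatives. The sequences are RefSeq windows on GRCm38.p6 and hold the 250 bases before an annotated start, 5′ to 3′ on the gene's strand. Capitals mark matches on either strand to 3 motifs. The proneural E-box was searched as CAGCTG. The CCAAT box was searched by the letters of its name. For the GC box, which binds SP proteins, the search was for GGGCGG.
Ptbp1, chr10:79854182-79854431, plus strand: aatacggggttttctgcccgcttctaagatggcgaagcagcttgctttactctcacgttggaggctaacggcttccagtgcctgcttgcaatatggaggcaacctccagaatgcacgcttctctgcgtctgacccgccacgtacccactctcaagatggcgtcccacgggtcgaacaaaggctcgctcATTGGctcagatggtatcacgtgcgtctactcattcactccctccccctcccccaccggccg
Rbfox1, upstream start, chr16:5884543-5884792, plus strand: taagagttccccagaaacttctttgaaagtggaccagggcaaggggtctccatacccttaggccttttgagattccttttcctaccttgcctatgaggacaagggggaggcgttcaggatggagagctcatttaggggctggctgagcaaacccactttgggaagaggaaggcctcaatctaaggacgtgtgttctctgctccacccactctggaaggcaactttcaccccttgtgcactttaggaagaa
Rbfox1, downstream start, chr16:7069585-7069834, plus strand: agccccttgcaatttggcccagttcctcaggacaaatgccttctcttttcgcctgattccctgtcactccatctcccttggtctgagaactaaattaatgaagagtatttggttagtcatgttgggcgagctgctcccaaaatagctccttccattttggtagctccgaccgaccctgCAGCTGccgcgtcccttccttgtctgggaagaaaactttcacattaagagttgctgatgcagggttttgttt
Nova1, chr12:46818768-46819017, minus strand: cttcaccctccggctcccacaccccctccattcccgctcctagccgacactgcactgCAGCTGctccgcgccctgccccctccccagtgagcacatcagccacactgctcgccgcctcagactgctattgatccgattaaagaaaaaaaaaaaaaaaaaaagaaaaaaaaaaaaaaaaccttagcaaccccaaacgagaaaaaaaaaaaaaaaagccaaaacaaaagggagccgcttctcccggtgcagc
Nova2, chr7:18925638-18925887, plus strand: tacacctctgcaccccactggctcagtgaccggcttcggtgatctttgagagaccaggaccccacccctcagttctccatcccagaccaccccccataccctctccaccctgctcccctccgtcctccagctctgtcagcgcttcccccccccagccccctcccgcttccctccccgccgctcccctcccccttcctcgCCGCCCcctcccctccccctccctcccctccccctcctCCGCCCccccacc

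The Ptbp1 window held 1 CCAAT box, 62 bases before the start, and 17 CpG dinucleotides, against a median of 6 in 32851 windows of all genes. The Nova1 window held 1 E-box, 193 bases before the start, and no GC box, while the Nova2 window held 2 GC boxes and no E-box. Of the Rbfox1 windows, the downstream one held 1 E-box, 72 bases before the start, and the upstream one held no match. Among all windows, 13% held the E-box, 33.8% the CCAAT box and 32.7% the GC box. These matches describe letters, and the gene-level counts do not say which Rbfox1 start was used. Windows matched 9 of the 10 members, all but Rbfox2, and there were 13 of them. Outside the 4 genes shown, Ptbp2 had 6 GC boxes and 23 CpG, and Elavl3 had 1 match to each of the 3 motifs.

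Per unit of transcript length, Rbfox2, Elavl3 and Ptbp2 were the most abundant of the 10 at E18.5. In the libraries labelled dcKO they averaged 262 ± 12.6, 251 ± 11.8 and 208 ± 9.11 TPM, and in ff libraries 274 ± 22, 253 ± 12.4 and 197 ± 13.2 TPM (SD, n = 4 each). Rbfox2 and Elavl3 overlapped in range, and Ptbp2 stood apart below them in both groups. At the other end, Srrm4 averaged 35.3 ± 1.98 TPM and Nova1 26.7 ± 3 TPM in the libraries labelled dcKO, against 30.4 ± 3.83 and 17.3 ± 2.26 TPM in ff (SD, n = 4 each).

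The place of Ptbp1 in this order differed between the genotypes at E18.5. In the libraries labelled dcKO it was the fourth gene, at 123 ± 8.74 TPM, apart from Ptbp2 above it and from Elavl4 (84.2 ± 3.53 TPM) below it (SD, n = 4). In ff it was the sixth, at 72.9 ± 6.63 TPM, and its range overlapped those of its neighbours Elavl4 (77.4 ± 9.27 TPM) and Rbfox3 (69.1 ± 3.57 TPM; SD, n = 4). Rbfox1 overlapped Rbfox3 in the libraries labelled dcKO and Elavl4 in ff.

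At E12.5 the PTB pair led. Ptbp2 averaged 222 ± 16.6 TPM in dcKO and 274 ± 18.1 TPM in ff, and Ptbp1 221 ± 9.58 TPM in dcKO and 235 ± 30.1 TPM in ff (SD, n = 3 each). The ranges of the pair overlapped in dcKO and stood apart in ff. Rbfox2 and Elavl3 followed and overlapped each other in both genotypes. Rbfox1 was the lowest, at 13.4 ± 2.45 TPM in dcKO and 13.5 ± 3.56 TPM in ff (SD, n = 3 each), overlapping Srrm4 in dcKO and apart from Nova1, its neighbour in ff.

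**Figure D1:**
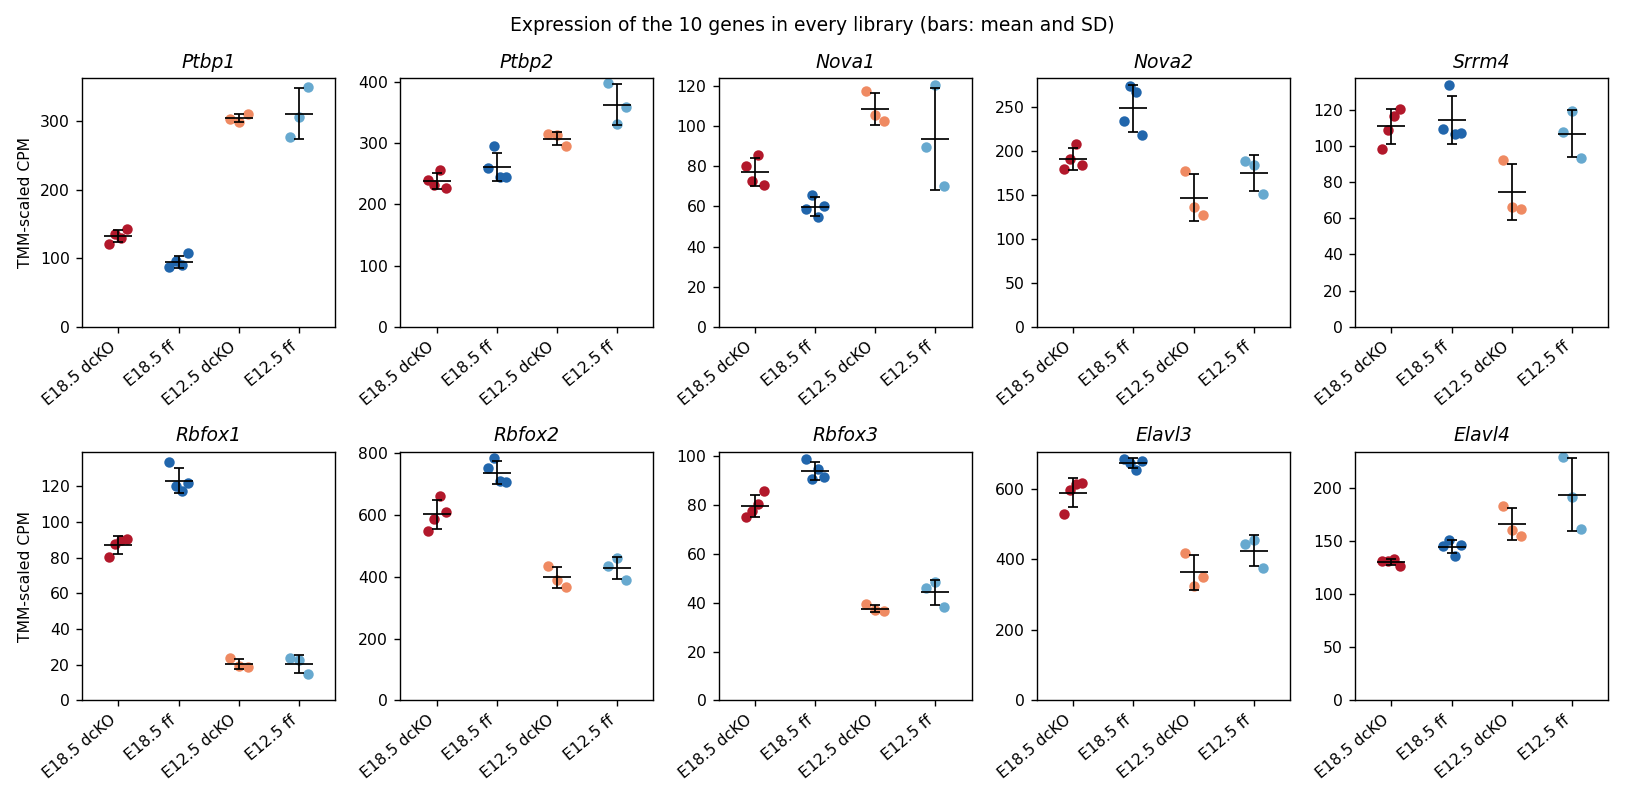
CPM of each of the 10 genes (vertical axis, CPM scaled by TMM, from 0) in every library of the 4 groups (horizontal axis), with the mean and SD as black bars. Ptbp1 lies between 121 and 142 CPM in the E18.5 libraries labelled dcKO, above the 87.5 to 107 CPM of E18.5 ff and below all E12.5 libraries.

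The stage comparison asked how the regulators differ between E18.5 cortex and E12.5 telencephalon, within each genotype. In both genotypes Rbfox1, Rbfox3, Elavl3, Rbfox2 and Nova2 were higher at E18.5, and Ptbp1, Nova1, Ptbp2 and Elavl4 were lower. In dcKO, 6 members were higher and 4 lower at E18.5, where 62.2% of 19327 genes were called (30.9% higher, 31.3% lower). In ff, 5 were higher and 4 lower, where 61.4% of genes were called (31.5% higher, 29.9% lower). With such a background most genes changed with stage, and the members' count is not a result of its own. Stage and the tissue dissected change together and cannot be told apart.

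Rbfox1 had the largest stage difference of the 10. It measured 80.1, 87.5, 89.8 and 90.5 CPM in E18.5 libraries labelled dcKO, against 23.7, 19.2 and 18.5 CPM in E12.5 dcKO. In ff it measured 133, 120.0, 117 and 122 CPM at E18.5, against 23.9, 22.4 and 14.9 CPM at E12.5. The stages did not overlap in either genotype, and the log2 difference was 2.12 (SE 0.13, adjusted p = 1.6e-09 in edgeR) in dcKO and 2.67 (SE 0.14, adjusted p = 1.5e-10 in edgeR) in ff.

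Ptbp1 had the largest fall. It measured 121, 136, 130.0 and 142 CPM in the E18.5 libraries labelled dcKO, against 303, 299 and 311 CPM in E12.5 dcKO, a log2 difference of -1.17 (SE 0.08, adjusted p = 3.1e-09 in edgeR). In ff it measured 87.5, 95.9, 90.0 and 107 CPM at E18.5, against 277, 306 and 349.8 CPM at E12.5, a log2 difference of -1.69 (SE 0.08, adjusted p = 2.7e-11 in edgeR). The stages were separate in both genotypes, by more in ff.

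Among the other genes higher at E18.5, Rbfox3 differed by 1.11 in dcKO and 1.12 in ff, Elavl3 by 0.73 and 0.69, Rbfox2 by 0.63 and 0.81, and Nova2 by 0.41 and 0.54. Among those lower, Nova1 differed by -0.46 in dcKO and -0.62 in ff, Ptbp2 by -0.33 and -0.45, and Elavl4 by -0.32 and -0.38. The adjusted p of these values ran from 2.5e-09 to 0.0098 in edgeR in dcKO and from 2.0e-09 to 0.0017 in edgeR in ff. Srrm4 was called in dcKO alone, with a log2 difference of 0.61 (SE 0.12, adjusted p = 4.9e-04 in edgeR), against 0.12 (SE 0.12, adjusted p = 0.40 in edgeR) in ff. The test of that difference between genotypes is the interaction given below, which missed the threshold for Srrm4. In CPM, 10 of 10 members in dcKO and 9 of 10 in ff did not overlap between the stages, as 63.4% and 59.6% of all genes did not. Elavl4 was the gene that depended on the scale: as log2(TPM + 1) it differed by 0.02 in dcKO (exact permutation p = 0.80) and by -0.31 in ff (exact permutation p = 0.14). Ptbp2 and Nova1 in dcKO missed the threshold on that scale too (-0.09, exact permutation p = 0.20, and -0.31, exact permutation p = 0.057). The length and GC correction took Nova2 in dcKO to 0.12, which missed the threshold (adjusted p = 0.26 in edgeR). It also took Srrm4 to 0.37, Rbfox2 to 0.40, Ptbp2 to -0.76 and Nova1 to -0.85 in dcKO, and Ptbp2 to -0.70 in ff, all still called. In ff, single E12.5 libraries weighed on Nova1, which was -0.35 without replicate 2 (adjusted p = 0.011 in edgeR), and on Elavl4, which was -0.25 without replicate 1 (adjusted p = 0.014 in edgeR).

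**Figure D2:**
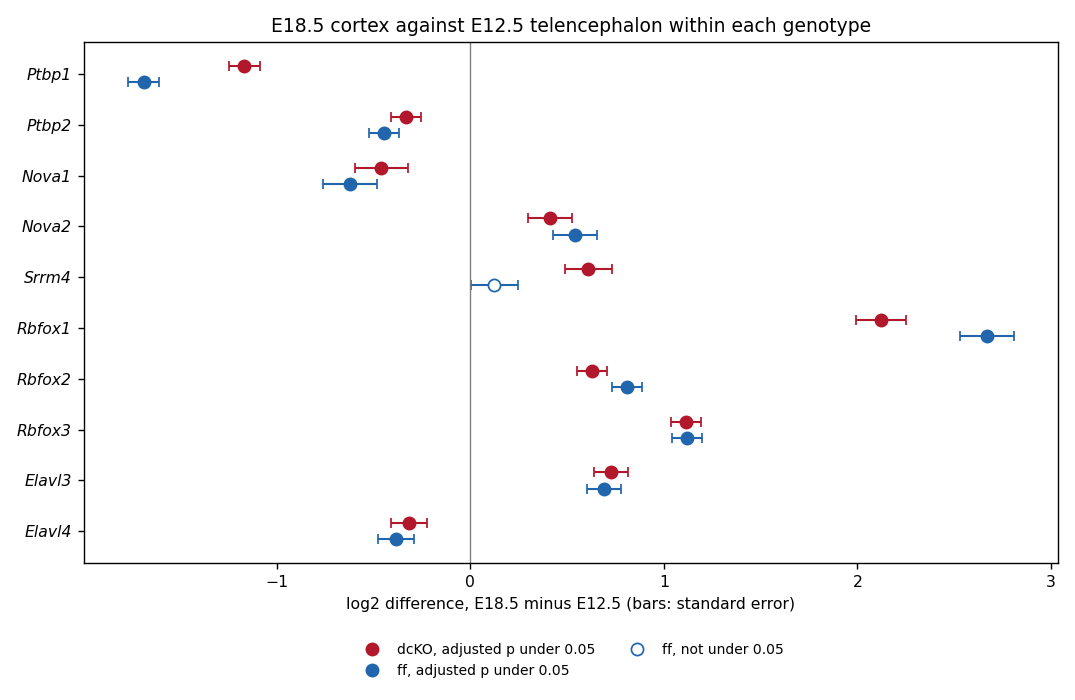
Log2 difference of E18.5 minus E12.5 with its standard error (horizontal axis) for the 10 genes (vertical axis), in dcKO above ff for each gene; filled points have an adjusted p under 0.05 in edgeR. Rbfox1 reaches 2.12 in dcKO and 2.67 in ff, Ptbp1 -1.17 and -1.69, and Srrm4 is filled in dcKO alone.

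The E12.5 comparison asked what the double conditional knockout changes in the telencephalon. At E12.5 none of the 10 genes was called, where 34 of 17853 genes were (0.19%, with 0.0392% higher and 0.151% lower). Of the members, 8 had a negative log2 difference, with a median of -0.22 over the 10 against 0.01 over all genes tested. Unadjusted, 3 members had a p under 0.05 (Srrm4, Ptbp2 and Rbfox3), as did 3433 of all genes. The DESeq2 Wald test called 1 member (Srrm4) and 1209 of 17853 genes, and limma-voom called 0 members and 205 genes. The log2 differences at this stage fell with transcript length (Spearman rho of -0.41 across 17448 genes, which are not independent replicates), and 5 members, Nova1, Nova2, Srrm4, Rbfox2 and Elavl3, have longest annotated transcripts of 5014 to 8372 bases. Corrected for length and GC content, the members' median was -0.08 against 0.02 over all genes, with Nova2 at -0.04, Rbfox2 at 0.08 and Nova1 at 0.47.

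Srrm4 had the largest difference of the 10 at E12.5. It measured 92.1, 66.3 and 65.1 CPM in dcKO, against 108, 119 and 93.3 CPM in ff. The groups did not overlap in CPM, but dcKO replicate 1 lay just below the lowest ff library. In TPM the groups overlapped (-0.56 as log2(TPM + 1), exact permutation p = 0.20). The log2 difference was -0.52 (SE 0.15, adjusted p = 0.13 in edgeR) and -0.31 when corrected for length and GC content (adjusted p = 0.16 in edgeR). It passed in the DESeq2 Wald test (adjusted p = 0.0086), in 1 fit of all 14 libraries (adjusted p = 0.036 in edgeR) and without dcKO replicate 1 (-0.69, adjusted p = 0.021 in edgeR). In the other 15 of 18 alternatives it missed the threshold. The authors' deposited table gives Srrm4 a log2 fold change of -0.42 with an adjusted p of 0.013, the one member past 0.05 there. Over all genes, 1247 of the 56941 listed are past 0.05 in it. Those 56941 are all gene IDs, of which 17853 passed the filter here. Across the genes tested here, the authors' log2 fold changes and those of edgeR had a Pearson r of 0.515 at E12.5.

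Ptbp2 was the other gene whose E12.5 groups did not overlap in CPM, as those of 26.3% of all genes did not. It measured 314, 314 and 295 CPM in dcKO, against 398, 331 and 359.9 CPM in ff, with a log2 difference of -0.23 (SE 0.09, adjusted p = 0.19 in edgeR). Ptbp1 and Rbfox1 had small differences of -0.03 (SE 0.09) and 0.04 (SE 0.19). Nova2, Rbfox3, Elavl3, Elavl4 and Rbfox2 lay between -0.25 and -0.11, and Nova1 at 0.21 (SE 0.19), with adjusted p from 0.25 to 0.59 in edgeR. The Nova1 counts in ff were the most spread, at 89.5, 121 and 70.3 CPM, against 118, 105 and 103 CPM in dcKO. In dcKO at E12.5, 6 cortical excitatory markers summed to 372 to 455 CPM, against 567 to 750 CPM in ff, and 12 pan-neuronal markers to 5153 to 5722 CPM, against 4659 to 5637 CPM. The 10 radial glia and cycling progenitor markers summed to 3059 to 3145 CPM in dcKO, against 3345 to 3629 CPM in ff. Among them Mki67, a marker of cycling cells, averaged 251 ± 36.3 CPM in dcKO and 401 ± 14.3 CPM in ff (SD, n = 3 each). The median log2 difference of these 10 markers was -0.04, against 0.01 over all genes, with 1 called lower and none higher. The 5 erythroid markers summed to 2770 to 3183 CPM in dcKO, against 2158 to 2601 CPM in ff. Of the 12 marker lists, 5 did not overlap at E12.5, the others being astrocyte (74.7 to 79.3 CPM in dcKO, against 89.9 to 114 CPM in ff) and endothelial (141 to 145 CPM, against 147 to 159 CPM). The part of cell composition at E12.5 was not tested.

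At E18.5 Ptbp1 and Nova1 were higher in the libraries labelled dcKO, and Rbfox1, Nova2, Rbfox2, Rbfox3 and Elavl3 were lower. These 7 calls stand against a background in which 5779 of 17974 genes were called (32.2%, with 15.6% higher and 16.6% lower). The median log2 difference of the 10 was -0.12, against 0.03 over all genes tested. In CPM, 2 members were higher and 6 lower without overlap between the groups, as 32.9% of all genes did not overlap. Such bulk values cannot tell fewer cells of a type from less RNA per cell.

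Ptbp1, the progenitor-rich repressor of neural exons, rose most. All 4 libraries labelled dcKO, listed above at 121 to 142 CPM, lay above all 4 ff libraries at 87.5 to 107 CPM. Its log2 difference was 0.53 (SE 0.07, adjusted p = 1.1e-04 in edgeR), and it was called in all 21 alternatives with values from 0.47 to 0.76. In male libraries alone it was 0.60 (adjusted p = 1.3e-04 in edgeR). The exons of Ptbp1 overlap those of Plppr3 on the opposite strand in GENCODE M21, and the strand used for counting was not given. Plppr3 itself, a brain phospholipid phosphatase-related protein, averaged 322 ± 22.7 CPM in the libraries labelled dcKO and 356 ± 15 CPM in ff (SD, n = 4 each; log2 difference -0.09, adjusted p = 0.19 in edgeR).

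Ptbp2, which rises in neurons when PTBP1 falls, was not called. It measured 239, 232, 256 and 227 CPM in the libraries labelled dcKO, against 259, 295, 245 and 245 CPM in ff, and the groups overlapped. Its log2 difference of -0.08 (SE 0.07, adjusted p = 0.41 in edgeR) became -0.16 (adjusted p = 0.035 in edgeR) after the length and GC correction and 0.08 (exact permutation p = 0.23) as log2(TPM + 1).

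The Nova paralogs went opposite ways. Nova1 measured 80.4, 72.6, 85.9 and 70.7 CPM in the libraries labelled dcKO, against 59.0, 66.0, 54.6 and 60.1 CPM in ff. Nova2, the more abundant in cortex, measured 179, 191, 209 and 184.6 CPM in the libraries labelled dcKO, against 235, 275, 268 and 218 CPM in ff. For both genes the groups did not overlap. The log2 difference was 0.42 for Nova1 (SE 0.08, adjusted p = 0.0014 in edgeR) and -0.33 for Nova2 (SE 0.07, adjusted p = 0.0041 in edgeR). Nova1 was 0.46 (adjusted p = 0.0045 in edgeR) and Nova2 -0.37 (adjusted p = 0.0049 in edgeR) in male libraries alone. Without replicates 1 and 3 labelled dcKO, the shallow library and the one with little Ttr, Nova1 was 0.28 (adjusted p = 0.013 in edgeR) and Nova2 -0.38 (adjusted p = 0.0095 in edgeR). Nova1 shares exon bases with the predicted gene Gm33869 on the same strand. Gm33869 averaged 1.39 CPM in the libraries labelled dcKO and 0.594 CPM in ff. It was called higher too (log2 difference 1.22, SE 0.31, adjusted p = 0.0098 in edgeR).

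All of the Rbfox paralogs fell at E18.5. Rbfox1 did so most, with 80.1 to 90.5 CPM in the libraries labelled dcKO, all below the 117 to 133 CPM of ff. Its log2 difference was -0.44 (SE 0.05, adjusted p = 5.5e-05 in edgeR), and all 21 alternatives kept the call with values from -0.50 to -0.33. Rbfox2, the most broadly expressed of the family, measured 549, 586, 659 and 610.2 CPM in the libraries labelled dcKO, against 749.8, 783, 708 and 705 CPM in ff. Rbfox3 measured 75.1, 77.4, 80.5 and 85.7 CPM, against 98.8, 90.9, 94.7 and 91.4 CPM in ff. Neither overlapped between the groups. Their log2 differences were -0.24 for Rbfox2 (SE 0.05, adjusted p = 0.0056 in edgeR) and -0.18 for Rbfox3 (SE 0.05, adjusted p = 0.012 in edgeR). Without replicates 1 and 3 labelled dcKO, Rbfox3 missed the threshold (-0.18, adjusted p = 0.058 in edgeR).

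Elavl3 was called at the edge of the threshold, and Elavl4 was not called. Elavl3 measured 529, 597, 613 and 615 CPM in the libraries labelled dcKO, against 685, 673, 654 and 679.6 CPM in ff. The groups did not overlap, and the log2 difference was -0.14 (SE 0.05, adjusted p = 0.044 in edgeR). Left out in turn, ff replicates 1 and 4 and each library labelled dcKO took the adjusted p of Elavl3 above 0.05 (from 0.052 to 0.086 in edgeR), and it missed the threshold in 14 of 21 alternatives in all. Elavl4 measured 126 to 133 CPM in the libraries labelled dcKO, against 136 to 151 CPM in ff, again without overlap (log2 difference -0.10, SE 0.05, adjusted p = 0.17 in edgeR). In TPM its groups overlapped, and as log2(TPM + 1) it differed by 0.13 (exact permutation p = 0.23), where the median of all genes was 0.12. In the authors' deposited table Elavl4 has a log2 fold change of -0.12 with an adjusted p of 0.048. There 8 members are past 0.05, as are 6315 of the 23184 genes listed.

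Srrm4 had a log2 difference of 0.02 at E18.5 (SE 0.07, adjusted p = 0.90 in edgeR). It measured 98.0, 109, 116 and 120.2 CPM in the libraries labelled dcKO, against 109, 134, 107 and 107 CPM in ff, so the groups overlapped and the sign turned with the setting.

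On the scale of the deposited TPM the median of all genes was shifted by 0.12 at E18.5 (log2(TPM + 1), dcKO minus ff), and the members are read against that shift. The tests were run on the differences before that shift was taken off. Ptbp1 differed by 0.75, Nova1 by 0.60 and Rbfox1 by -0.33. These were the 3 members whose TPM did not overlap between the groups. Any gene without overlap has an exact two-sided permutation p of 0.0286, the smallest that 4 against 4 allows. The share of all genes whose TPM did not overlap was not computed. Nova2 differed by -0.20 (exact permutation p = 0.057), and Rbfox2 (-0.063), Rbfox3 (-0.12) and Elavl3 (-0.012) had exact permutation p from 0.14 to 0.86. With the median gene's shift taken off, and with no test, Ptbp1 was 0.63, Nova1 0.47, Rbfox1 -0.45, Nova2 -0.32, Rbfox3 -0.24, Rbfox2 -0.18 and Elavl3 -0.13.

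**Figure D3:**
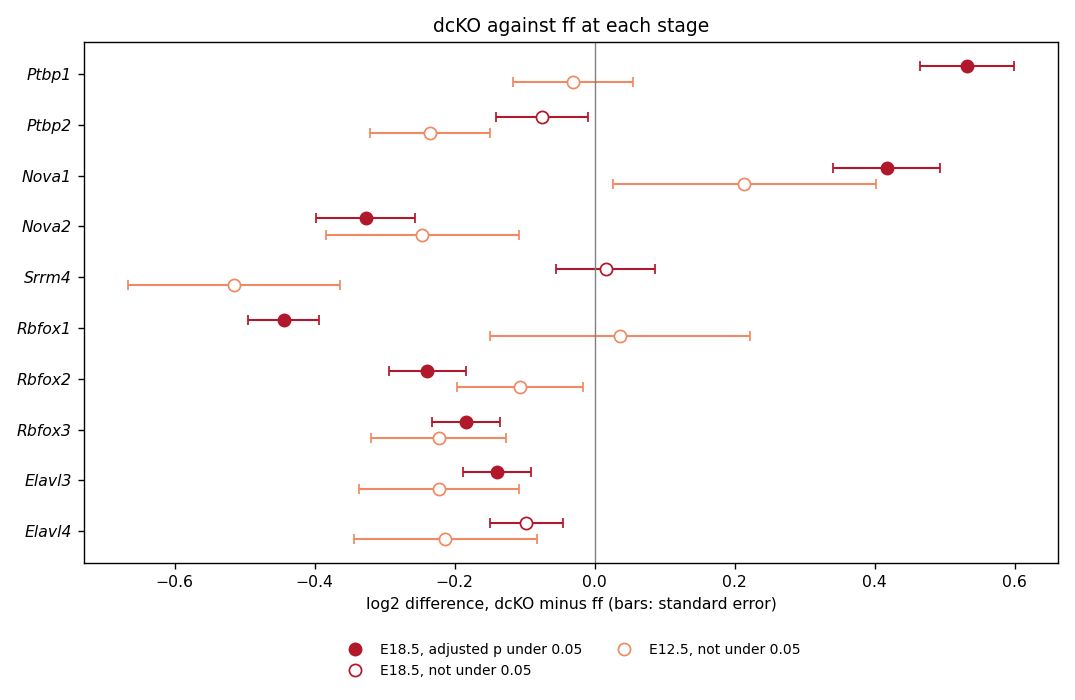
Log2 difference of dcKO minus ff with its standard error (horizontal axis) for the 10 genes (vertical axis), E18.5 above E12.5 for each gene; filled points have an adjusted p under 0.05 in edgeR. At E18.5 Ptbp1 (0.53) and Nova1 (0.42) are filled on the right and Rbfox1 (-0.44), Nova2 (-0.33), Rbfox2 (-0.24), Rbfox3 (-0.18) and Elavl3 (-0.14) on the left, and no E12.5 point is filled.

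Markers of cell types moved at E18.5 as well. Of 12 pan-neuronal markers, 11 were lower in the libraries labelled dcKO and none was higher, and they summed to 7145 to 8570 CPM, against 10915 to 11914 CPM in ff. Of 10 radial glia and cycling progenitor markers, 8 were higher and none lower, with sums of 1591 to 1720 CPM, against 1381 to 1516 CPM in ff. All 8 inhibitory neuron markers were higher, with sums of 902 to 1015 CPM, against 563 to 598 CPM in ff. Of 6 cortical excitatory neuron markers, 5 were lower and 1 higher, with sums of 1031 to 1208 CPM, against 1670 to 1854 CPM in ff. Microglia markers were higher in 4 of 5, with sums of 93.6 to 112 CPM, against 70.1 to 87.0 CPM in ff. The 5 erythroid markers summed to 132 to 649 CPM in the libraries labelled dcKO, against 904 to 1515 CPM in ff, with a median log2 difference of -1.44 and adjusted p from 0.079 to 0.17 in edgeR. These were the 6 of 12 marker lists whose sums did not overlap at E18.5. No listed marker of these types was at 0 in every library of a group, and the part of cell composition in the 7 calls was not tested. The median log2 difference was -0.37 for the pan-neuronal markers and 0.52 for the progenitor markers. It was -0.12 over the 10 genes described, which ran from -0.44 (Rbfox1) to 0.53 (Ptbp1).

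The interaction of genotype and stage asked whether the difference at E18.5 is another than that at E12.5. It was called for 2 of the 10 genes, against 16.5% of 19327 genes (7.12% higher, 9.41% lower). For Ptbp1 the dcKO difference was higher at E18.5 by 0.52 on the log2 scale (SE 0.11, adjusted p = 0.0069 in edgeR), and all 23 alternatives kept the call with values from 0.42 to 0.61. For Rbfox1 it was lower, with an interaction of -0.55 (SE 0.18, adjusted p = 0.047 in edgeR). Only 8 of 23 alternatives kept it below 0.05, and it went above 0.05 with any 1 of the 8 E18.5 libraries left out (adjusted p from 0.0605 to 0.090 in edgeR). The same held in edgeR without E12.5 ff replicate 3 (-0.34, adjusted p = 0.092) and without E12.5 dcKO replicate 1 (-0.45, adjusted p = 0.11), 2 (adjusted p = 0.076) or 3 (adjusted p = 0.060).

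Srrm4 had an interaction of 0.49 (SE 0.17), which missed the threshold (adjusted p = 0.068 in edgeR). With all libraries it passed with upper quartile scaling (0.51, adjusted p = 0.039 in edgeR), with a filter at a mean of at least 1 CPM (0.51, adjusted p = 0.044 in edgeR) and in the DESeq2 Wald test (0.52, adjusted p = 0.020). It also passed in edgeR without E12.5 dcKO replicate 1 (0.64, adjusted p = 0.013), E12.5 ff replicate 3 (adjusted p = 0.047) or E18.5 ff replicate 2 (adjusted p = 0.032). In the other 17 of 23 alternatives it missed the threshold, with its lowest value, 0.29, after the length and GC correction. Rbfox2 had an interaction of -0.18 (adjusted p = 0.28 in edgeR), which was -0.37 (adjusted p = 0.0026 in edgeR) after the length and GC correction. For Nova1, Nova2, Ptbp2, Rbfox3, Elavl3 and Elavl4 it lay between -0.13 and 0.16, with adjusted p from 0.53 to 0.98 in edgeR.

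Ratios within a library show the balance between paralogs without scaling between libraries, and are given with no test. The TPM ratio of Ptbp1 over Ptbp2 was 0.530 to 0.665 in the E18.5 libraries labelled dcKO (mean 0.594), against 0.339 to 0.407 in E18.5 ff (mean 0.370). At E12.5 it averaged 0.996 ± 0.058 in dcKO and 0.862 ± 0.158 in ff (SD, n = 3 each). The E18.5 groups did not overlap, and both lay below all libraries of their genotype at E12.5.

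The ratio of Nova2 over Nova1 was 1.53 to 1.94 in the E18.5 libraries labelled dcKO (mean 1.75), against 2.50 to 3.72 in E18.5 ff (mean 3.12). At E12.5 it was 0.760 to 1.09 in dcKO, against 1.14 to 1.70 in ff, so dcKO lay below ff at both stages. Rbfox1 over Rbfox2 was 0.251 to 0.274 in the E18.5 libraries labelled dcKO, against 0.292 to 0.334 in ff, while the E12.5 ranges overlapped. Elavl3 over Elavl4 averaged 2.98 ± 0.161 in the libraries labelled dcKO and 3.29 ± 0.258 in ff at E18.5, with overlapping ranges (SD, n = 4 each). TPM rest on the transcript lengths that RSEM estimated per library. At E12.5 the Nova1 counts per TPM were lower in dcKO than in ff by 0.16 on the log2 scale (difference -0.16), as low as in 3.51% of genes.

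**Figure D4:**
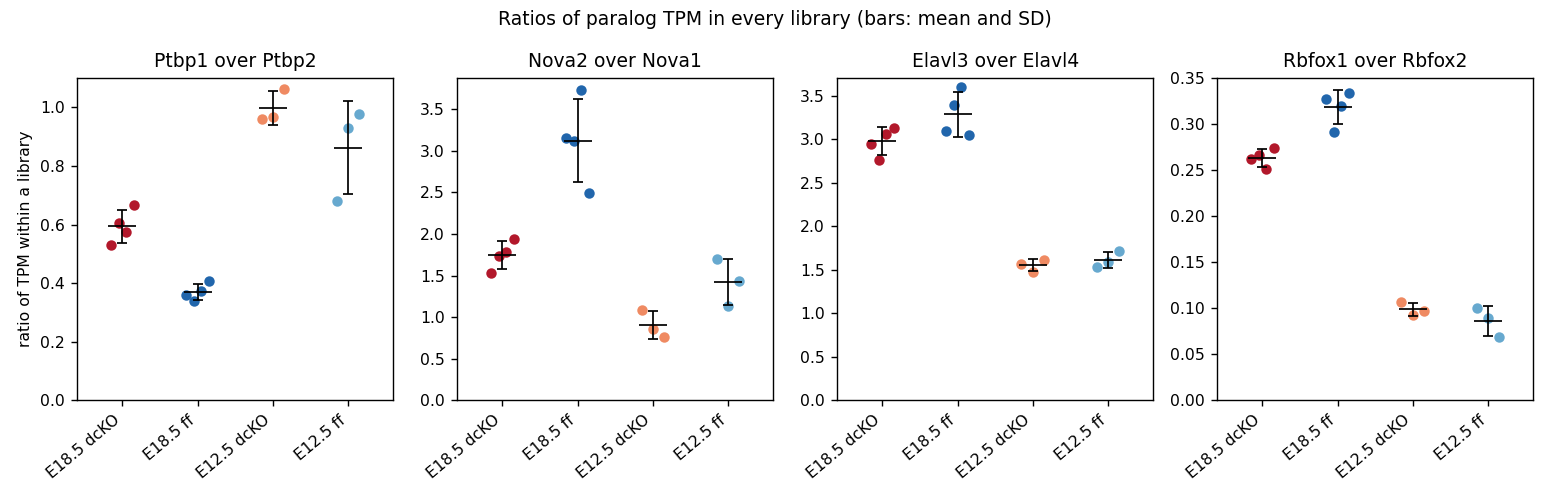
Ratio of the TPM of 2 paralogs within each library (vertical axis, from 0) in the 4 groups (horizontal axis), with the mean and SD as black bars. At E18.5 Ptbp1 over Ptbp2 averages 0.594 in the libraries labelled dcKO and 0.370 in ff, and Nova2 over Nova1 averages 1.75 and 3.12.

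Further RNA-binding proteins, spliced target genes and microRNA host transcripts were followed in 6 lists. Their counts at E18.5 stand against 15.6% higher and 16.6% lower over all genes tested. Among 29 tested splicing regulators of the members' families and partners, 11 were higher and 5 lower in the libraries labelled dcKO at E18.5, with a median log2 difference of 0.07 against 0.03 over all genes. Khdrbs3, the neural STAR protein SLM2 that acts on neurexin splicing, averaged 146 ± 10.3 CPM in the libraries labelled dcKO and 255 ± 19.2 CPM in ff (SD, n = 4 each; log2 difference -0.75, SE 0.06, adjusted p = 5.0e-06 in edgeR). Rbm24, a splicing regulator best known from muscle, fell by 0.48 on the log2 scale, while Tia1, a U-rich binding protein, and Mbnl1, a muscleblind regulator of developmental splicing, rose by 0.52 and 0.34. Among 21 SR and SR-like splicing factors, 8 were higher and none lower (median 0.10), among them Srsf6 (0.42), Srsf5 (0.37) and Srsf11 (0.32), all serine-arginine proteins, and the SR protein kinase Clk3 (0.23).

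The hnRNP proteins, to which PTBP1 belongs, gave 2 of 29 higher and 3 lower at E18.5 (median 0.01). Pcbp4 (-0.35), a poly(C)-binding protein, Hnrnph2 (-0.30) and Hnrnpa1 (-0.16) fell, and Taf15 (0.33), a FET protein, rose. The Hnrnpa1 call was lost in edgeR without replicate 2 (adjusted p = 0.053) or 4 (adjusted p = 0.077) labelled dcKO. Among 29 tested neural RNA stability and translation regulators, 8 were higher and 4 lower (median 0.01). Stau2, a carrier of dendritic RNA, averaged 111 ± 5.22 CPM in the libraries labelled dcKO and 151 ± 7.52 CPM in ff (SD, n = 4 each; log2 difference -0.38, adjusted p = 1.4e-04 in edgeR). Fxr1, of the fragile X family, fell by 0.26 on the log2 scale, and Samd4, a Smaug-family translational repressor, and Caprin2 rose by 0.62 and 0.55.

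Of 16 genes with a known splicing event under a member's control, 3 were higher and 4 lower at E18.5 in their gene totals (median -0.10). Dab1, the reelin adaptor whose exons NOVA2 controls, averaged 152 ± 16.6 CPM in the libraries labelled dcKO and 246 ± 16.2 CPM in ff (SD, n = 4 each; log2 difference -0.64, adjusted p = 1.8e-05 in edgeR). Nin, a centrosomal protein with an RBFOX-dependent exon, had -0.25. Flna, a filamin with a PTBP1-dependent exon, had 0.41. Of 3 host transcripts of brain microRNAs, Mir124a-1hg was higher (0.45, SE 0.13, adjusted p = 0.035 in edgeR), a call lost in edgeR without any 1 of the ff libraries (adjusted p from 0.056 to 0.096) and without replicate 3 (0.068) or 4 (0.081) labelled dcKO.

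At E12.5 none of the 129 listed genes tested was called in edgeR, with 35 at an unadjusted p under 0.05 (3433 of 17853 over all genes). The DESeq2 Wald test called 17 of them (1209 of 17853 over all genes) and limma-voom 2 (205 of 17853). The lowest p were those of Raver1, a PTBP1 co-repressor (log2 difference -0.46, adjusted p = 0.063 in edgeR), and Hnrnph2 (-0.32, adjusted p = 0.063 in edgeR). With stage, 25 of 29 hnRNP genes were lower at E18.5 and none was higher, in dcKO (median -0.54, where 31.3% of all genes were lower) and in ff (median -0.62, where 29.9% were). Of 21 SR and SR-like factors, 12 were lower and 5 higher at E18.5 in dcKO, against 15 lower and 4 higher in ff.

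**Figure D5:**
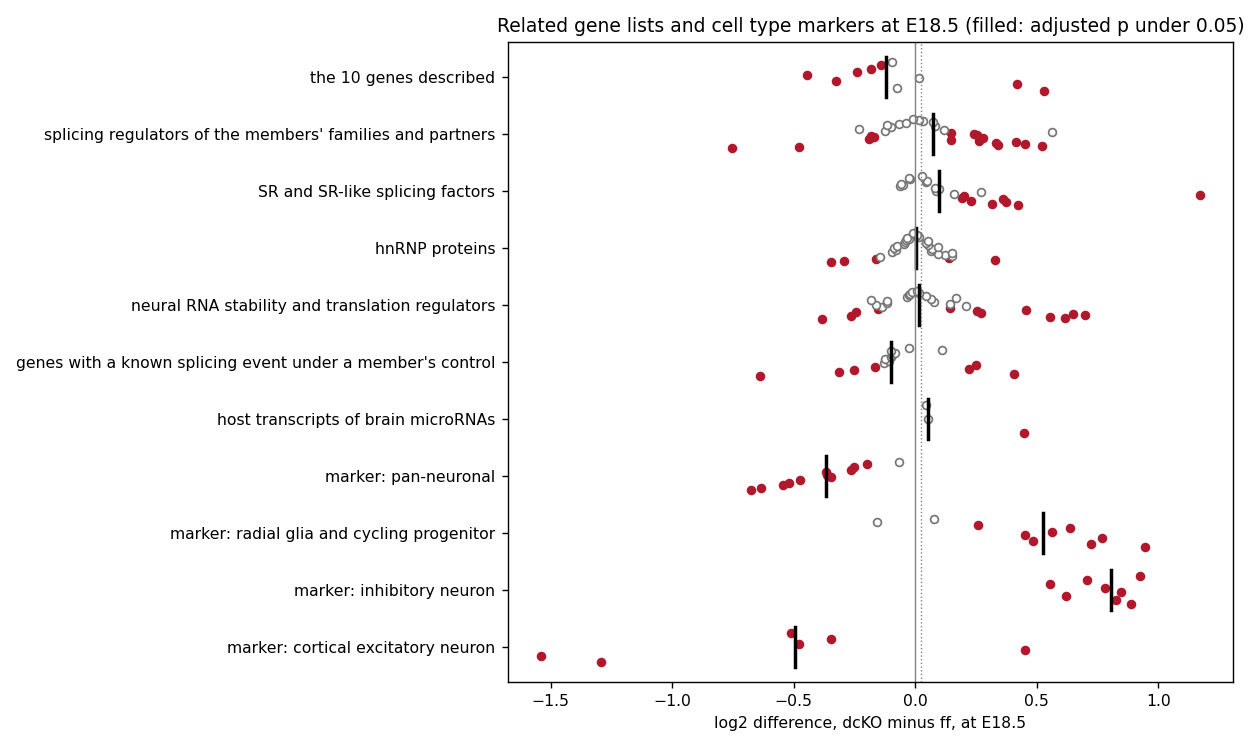
Log2 difference of dcKO minus ff at E18.5 (horizontal axis) for each gene of the 10 regulators, the 6 lists and 4 marker lists (vertical axis); filled points have an adjusted p under 0.05 in edgeR, black bars are medians, the solid line is 0 and the dotted line the median of all genes. The pan-neuronal markers have a median of -0.37 and the progenitor markers of 0.52, while the medians of the first 5 of the 6 lists lie between -0.10 and 0.10.

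The members were also described by the genes most like them over the 14 libraries, each value taken as the deviation from its stage's mean (log2 CPM, 11075 genes compared). The highest Pearson r for Ptbp1 was with Slc25a37, a mitochondrial iron carrier (0.966), for Rbfox1 with Lrp11 (0.962) and Cacna1d, a calcium channel subunit (0.951), and for Nova2 with Atp8a2 (0.970). Rbfox2 went with Ids (0.993), Srrm4 with Phf2 (0.981), Ptbp2 with Khdrbs1, the STAR protein SAM68 (0.963), and Rbfox3 with Jph4 (0.966). Nova1 went with Scml4 (0.938), Elavl3 with Tecpr2 (0.961) and Elavl4 with Srpk2, a kinase of SR proteins (0.933). Between members, r was highest for Nova2 with Rbfox2 (0.901) and Rbfox3 with Elavl3 (0.892), and lowest for Ptbp1 with Rbfox1 (-0.813). Nova1 and Nova2 had r of -0.259. These values share libraries, depth and the genotype difference, and carry no test.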

How the data were processed

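The 10 genes, the gene lists and the tests were chosen with earlier results of these data known, and the lists are used as descriptions. RNA was extracted with an RNeasy column kit and made into libraries with a stranded polyA kit, per the labels' protocols. Trim Galore, STAR, RSEM and DESeq2 are named in the submitters' processing notes. Versions, genome build, annotation and counting strand are not given in the sources used here. The authors deposited expected counts per gene from RSEM, without normalization, of which 3.3% to 6.11% in a library were fractional. Deposited TPM came from the same RSEM runs and add a length estimated per library. Per the file headers, the tables of log2 fold changes, standard errors, p-values and adjusted p are DESeq2 output of the authors. The table columns called dfl were read as ff, and replicate numbers follow their order within a group, not the titles.

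Expected counts were rounded and tested in R 4.3.3 with edgeR 4.0.16 (filterByExpr, TMM scaling, robust quasi-likelihood F test, Benjamini-Hochberg adjustment over all genes tested, threshold 0.05), each stage in its own fit. The interaction and the stage differences came from 1 fit of all 14 libraries. CPM are scaled by TMM over the 14 libraries, with a prior count of 2 on the log scale. TPM were compared as log2(TPM + 1) with exact two-sided permutation tests, without adjustment over genes. These allow no p below 0.0286 for 4 against 4 or 4 against 3, and none below 0.1 for 3 against 3. All 10 genes passed the filter in every comparison. The lists named up to 4 genes with the lowest p at E18.5 and up to 2 at E12.5, of which 1 is not reported here, and likeness used genes with a mean of at least 5 CPM at each stage. Of 204 listed symbols 203 were in the tables. Exon overlaps and the longest transcript's length and GC content came from GENCODE M21, and promoter windows from RefSeq.

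Alternatives were DESeq2 1.42.0 size factors and Wald test, upper quartile scaling, voom in limma 3.58.1, a filter at a mean of at least 1 CPM or none, splines of length and GC content with 5 degrees of freedom, sex as a covariate, 1 fit of all libraries, log2(TPM + 0.1) and each library left out. Male libraries alone, both shallow libraries left out, and E18.5 without dcKO replicates 1 and 3 were added after the data were seen. The fits were tested on simulated counts with known changes. Precision is limited by the number of libraries, and in the 2 shallow ones by counting error.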

Additional observations from a re-analysis of the deposited data

Results flagged for a closer look

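Srrm4 in E18.5 ff replicate 2 stood far from its group, at 134 CPM (133.8), against 107 to 109 CPM in the other 3 ff libraries, and it was the one such library among the 20 sets of 4 examined (10 genes in 2 groups). Chance gives about 1 in 20. The genotype difference of Ptbp1 changed with stage by 0.52 on the log2 scale in the interaction test (0.53 at E18.5, -0.03 at E12.5; adjusted p = 0.0069 in edgeR). The genotype difference of Rbfox1 changed with stage by -0.55 (-0.44 at E18.5, 0.04 at E12.5; adjusted p = 0.047 in edgeR), and the range of adjusted p over its alternatives was 0.018 to 0.11.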

How the results depend on the processing

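At E18.5 the direction and the call of Ptbp1, Nova1 and Rbfox1 were kept in 21 of 21 alternatives, and those of Nova2 and Rbfox2 in 19 of 21, the exceptions being both TPM scales. On the log2(TPM + 1) and log2(TPM + 0.1) scales 3 members had an exact permutation p under 0.05, not adjusted, against the 7 called at E18.5. These counts rest on unlike criteria. With 4 against 4 only groups without overlap can pass (exact permutation p = 0.0286). The TPM tests also kept the median gene's shift (0.12 and 0.15), and the share of all genes that pass in TPM was not computed. At E12.5 the count of 0 members came with 34 of 17853 genes called. It was 1 in the DESeq2 Wald test (1209 of 17853) and 1 in 1 fit of all 14 libraries (1079 of 19327). With 1 library left out it was 0 to 1, and 0 to 571 over all genes. The interaction's count of 2 members came with 3195 of 19327 genes called. It was 1 with DESeq2 size factors (3116 of 19327 genes) and 1 without a filter (2270 of 32169). It was 3 with upper quartile scaling (3341 of 19327) and in the DESeq2 Wald test (4038 of 19327). A filter at a mean of at least 1 CPM also gave 3 (3383 of 15191). With 1 library left out the count was 1 to 2. After the length and GC correction it stayed 2 (3479 of 19327), but the members were Ptbp1 and Rbfox2, and Rbfox1 missed the threshold. The cause of these changes was not tested. Stage differences kept their direction and side of the threshold in all 17 alternatives for 9 of 10 genes in ff and for 6 of 10 in dcKO.

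Over all genes, the 34 calls at E12.5 were 56 with DESeq2 size factors, 1209 in the DESeq2 Wald test, 205 in limma-voom, 244 without a filter, 9 with a mean of at least 1 CPM, 98 after the length and GC correction, 3 with sex as a covariate, 6 in male libraries alone and 1079 in 1 fit of all 14 libraries. The fit in male libraries alone is the same as that without ff replicate 3, the 1 female library at E12.5. With 1 library left out the calls at E12.5 were 0 (without dcKO replicate 2 or 3) to 571 (without dcKO replicate 1). At those counts of 0 in edgeR, 1790 and 1723 genes had an unadjusted p under 0.05, and no other tool was run on these subsets. Interaction calls were 1690 to 3307 with 1 library left out. The cause of these changes was not tested.

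Signs turned for log2 differences that the tests as reported had not called, with 1 exception: Elavl4 between stages in dcKO was 0.020 as log2(TPM + 1) and 0.021 as log2(TPM + 0.1). At E12.5 Ptbp1 was 0.016 with upper quartile scaling, 0.057 with sex as a covariate and 0.059 in male libraries, and Rbfox1 -0.17 in both of these. Both settings turn on ff replicate 3, the 1 female library at E12.5, and the male fit is the fit without it. After the length and GC correction Rbfox2 was 0.085, Srsf1 0.043 and Mir124-2hg 0.038, and with upper quartile scaling Mir124-2hg was 0.0076. At E18.5, as log2(TPM + 1) and log2(TPM + 0.1), Ptbp2 was 0.078 and 0.078, Elavl4 0.13 and 0.13, and Sbno1 0.34 and 0.35 (exact permutation p = 0.0286 each). Srrm4 was -0.0047 without a filter and -0.028 in 1 fit, and Mir9-3hg -0.021 in male libraries. The interaction after the length and GC correction was -0.067 for Ptbp2, -0.092 for Nova1, -0.048 for Elavl3 and -0.039 for Elavl4 (-0.083 without both shallow libraries). That of Rbfox3 was 0.030 with DESeq2 size factors, 0.012 with upper quartile scaling, 0.028 in the DESeq2 Wald test and 0.022 with a mean of at least 1 CPM.

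With 1 library left out, E12.5 log2 differences ran from -0.097 to 0.059 for Ptbp1, -0.17 to 0.14 for Rbfox1 and -0.15 to 0.067 for Mir124-2hg. Those at E18.5 ran from -0.034 to 0.072 for Srrm4, -0.061 to 0.0042 for Sbno1 and -0.060 to 0.086 for Mir124-2hg. Interactions ran from -0.12 to 0.34 for Nova1, -0.23 to 0.0049 for Nova2, -0.12 to 0.092 for Rbfox3, -0.047 to 0.13 for Elavl3 and -0.072 to 0.18 for Elavl4.

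No paired analysis was possible because the sample numbers in the titles and column names do not repeat between genotypes within a stage, and each genotype has only 1 number in common between stages. Depth limits the libraries of 5.98 M (E18.5 dcKO replicate 1) and 4.92 M counts (E12.5 ff replicate 1), where the lowest count of a member was 510 and 116.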
